A study of Rattus norvegicus with 160 samples.

Results

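The genes described here encode the machinery that stores transmitter in vesicles and fuses those vesicles with the presynaptic membrane. They were chosen by symbol: every array row whose RefSeq accession mapped to a rat synaptotagmin (Syt), syntaxin (Stx), syntaxin-binding protein (Stxbp), VAMP, synapsin (Syn1 to Syn3), complexin (Cplx), SV2, Rab3 or SNAP family gene, or to Syp, Sypl1, Nsf or Napa. The rule found 59 genes among 9387 named genes on the array. They lay on 61 rows, and Stxbp5 and Syn2, which had 2 rows each, were represented by the row with the highest mean. A further 11 symbols that fit the rule, Napb among them, were not analysed here.

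RNA from dissected amygdala and from hippocampus was measured on 1-colour NimbleGen arrays. The animals were Sprague-Dawley males taken at postnatal day 7, 14 or 21 (P07, P14, P21) or as adults (day 75). The rats came from the selectively bred lines known as high (HR) and low (LR) responders to novelty. There were 4 rearing groups: LR-HR, pups of LR parents given to an HR foster dam; LR-LR, pups of LR parents given to an LR foster dam; HR, raised by their own HR mother; and LR, raised by their own LR mother. Each group had 5 arrays per region and age, 160 in all. Both fostered groups were of LR parentage, and HR pups fostered to other dams were not among the groups. The labels do not say which rats were littermates, so the p-values measure the spread between these arrays, some of which may share a litter. Portions of each region were dissected from 300 µm brain sections.

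In textbook terms, a vesicle docks when its SNARE protein VAMP2 pairs with SNAP-25 and a syntaxin on the plasma membrane. Complexin clamps the assembled complex, and calcium bound to a synaptotagmin triggers fusion. Nsf with the adaptor Napa then takes the complex apart so that the SNAREs can be used again, while synapsins hold a reserve of vesicles on the cytoskeleton and Rab3 marks vesicles for docking. In the rodent forebrain, transcripts of many release genes become more abundant as synapses form after birth, though not of every family member.

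Upstream sequence was examined because many members moved together in the amygdala. RefSeq promoters of build GRCr8 were matched to 45 of the 59 members. The 250 bases before the start were searched on both strands for the GC box GGGCGG, the cAMP response element TGACGTCA and TTCAGCACC, the left part of the RE1 element. The matches printed do not overlap. The first 3 sequences belong to genes that changed strongly in the same direction, and the last to Stx8, which moved the opposite way; capitals mark the motifs found.
Syn1, GRCr8 chrX:3725495-3725744, plus strand: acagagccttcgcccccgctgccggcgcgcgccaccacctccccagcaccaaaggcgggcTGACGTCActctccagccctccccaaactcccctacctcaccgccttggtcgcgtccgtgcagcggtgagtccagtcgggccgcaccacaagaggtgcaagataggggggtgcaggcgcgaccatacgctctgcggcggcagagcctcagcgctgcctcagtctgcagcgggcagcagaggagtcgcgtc
Vamp2, GRCr8 chr10:54292539-54292788, plus strand: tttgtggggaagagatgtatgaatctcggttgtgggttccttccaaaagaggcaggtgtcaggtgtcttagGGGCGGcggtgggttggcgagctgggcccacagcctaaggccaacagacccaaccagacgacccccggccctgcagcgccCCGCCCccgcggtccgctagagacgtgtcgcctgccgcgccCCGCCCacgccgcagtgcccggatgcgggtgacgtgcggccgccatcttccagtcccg
Syt11, GRCr8 chr2:176529776-176530025, minus strand: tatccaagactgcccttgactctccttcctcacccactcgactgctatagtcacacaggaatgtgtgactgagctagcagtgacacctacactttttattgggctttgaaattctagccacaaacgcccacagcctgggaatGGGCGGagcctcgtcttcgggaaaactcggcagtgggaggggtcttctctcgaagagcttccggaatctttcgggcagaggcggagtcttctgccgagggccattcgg
Stx8, GRCr8 chr10:53154422-53154671, plus strand: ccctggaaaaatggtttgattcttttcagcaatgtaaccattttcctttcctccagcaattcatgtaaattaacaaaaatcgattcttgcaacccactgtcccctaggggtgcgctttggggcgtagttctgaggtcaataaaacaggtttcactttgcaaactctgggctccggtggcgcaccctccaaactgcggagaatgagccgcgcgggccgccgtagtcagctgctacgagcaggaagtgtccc
Syn1 held 1 cAMP response element, Vamp2 held 3 GC boxes, Syt11 held 1 GC box, and Stx8 held no match. A GC box was present in 31 of the 45 member promoters (68.9%), against 32.4% of 27457 promoters of the same length. The median GC content was 61.6% for the members and 52.0% for all promoters. The cAMP response element was present in 3 of the 45 (6.67%), in Napa, Syn1 and Vamp1, against 1.70% of all promoters. The RE1 part was found in 0 of the 45 members and in 0.317% of all promoters. Among members lower in the P14 amygdala of LR-HR rats than of LR-LR rats, 11 of the 15 with a promoter held a GC box, and among those that passed the test in neither direction 19 of 27 did. Of the 3 members higher there, all with a promoter, 1 held a GC box (Vamp8).

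Several arrays stood apart. In the hippocampus at P21 the mean log2 intensity of the 59 members was 7.44, 7.34 and 7.51 on LR-LR replicates 1, 2 and 3, against 8.88 and 8.83 on replicates 4 and 5. The 13 general neuron markers averaged 9.42, 9.43 and 9.49 on the first 3 of these arrays, 9.21 on LR replicate 5, and 10.89 to 11.93 on the other 16 arrays of that age. For comparisons that use these 4 arrays, the counts of called members are given with and without them. The median member stood at percentile 70.0 of all amygdala transcripts and 70.1 of all hippocampal ones. Not every member was bright: 15 of the 59 in the amygdala and 17 in the hippocampus lay below the median transcript. In the amygdala the neuron markers averaged 11.94 to 13.10 on the 80 arrays. Markers of striatal projection neurons, which lie next to the amygdala, are given with the results they move with. All levels are log2 of the deposited intensity, and each region came as a table of its own, so levels are compared only within a region and a gene.

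**Figure D1:**
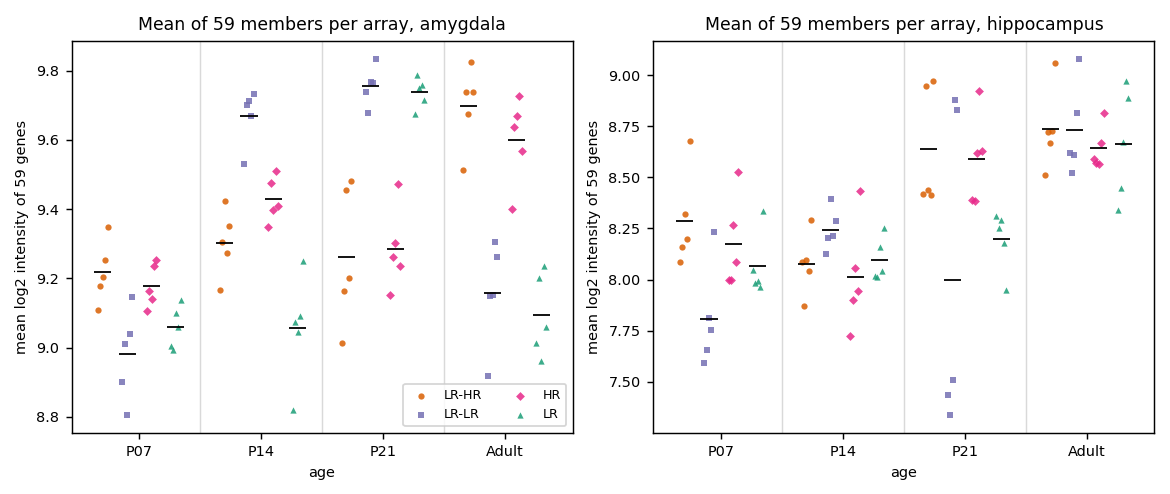
Mean log2 intensity of the 59 members on each array (points) by age and rearing group in amygdala (left) and hippocampus (right); bars are means of 5 arrays. In the amygdala LR-HR arrays lie at 9.17 to 9.42 at P14 and at 9.51 to 9.83 in adults, LR-LR arrays at 9.53 to 9.73 and 8.92 to 9.30.

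The first comparison asked what fostering to an HR dam rather than to an LR dam did to LR pups. The labels name no hybridisation batch, so a batch that coincided with a rearing group cannot be told apart from rearing in any of the rearing comparisons. In the amygdala, genes of the release machinery were lower in LR-HR pups at P14 and P21 and higher in LR-HR adults. No member passed the test at P07, when 0.0901% of the 22197 transcripts did (limma, Benjamini-Hochberg adjusted p under 0.05 over all transcripts). An unadjusted p under 0.05 was seen for 19 members and for 3020 of the 22197 transcripts. At P14, 22 of the 59 members were lower and 3 higher (42.4%), against 22.3% of all transcripts (13.7% lower, 8.52% higher). At P21, 23 were lower and 1 higher (40.7%), against 21.6% of all transcripts (15.5% lower, 6.14% higher). In adults 29 were higher and 0 lower (49.2%), against 21.7% of all transcripts (17.2% higher, 4.55% lower). The median change over the members was -0.36, -0.56 and 0.63 on the log2 scale at P14, P21 and in adults, and over all transcripts -0.02, -0.15 and 0.12. The 5 arrays of each group did not overlap for 21, 19 and 22 of the 59 members at the 3 ages, against 20.4%, 15.6% and 14.2% of all transcripts. In these dissected samples, fewer cells of a type and less RNA per cell cannot be told apart.

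Among the synaptic SNAREs, Vamp2 and Snap25 were lower in LR-HR pups at P14 and P21 and higher in LR-HR adults. Vamp2, the vesicle SNARE, read 12.95, 13.08, 12.98, 13.42 and 13.12 in LR-HR pups at P14, against 14.38, 14.36, 14.57, 14.26 and 14.42 in LR-LR pups. The groups did not overlap, and the change was -1.29 ± 0.16 (log2, SE; adjusted p = 1.07e-05). At P21 Vamp2 averaged 13.42 ± 0.41 in LR-HR pups and 14.61 ± 0.24 in LR-LR pups (SD, n = 5 each; change -1.19, adjusted p = 0.000324, limma). In adults the order was the opposite: Vamp2 read 14.04, 14.06, 14.08, 13.98 and 13.83 in LR-HR rats, against 12.94, 12.90, 13.18, 13.06 and 13.58 in LR-LR rats. Every LR-HR adult lay above every LR-LR adult, by 0.86 ± 0.18 on average (log2, SE; adjusted p = 0.00212, limma).

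Snap25, a SNARE of the plasma membrane, changed less than Vamp2 at these ages: it averaged 13.07 ± 0.25 and 13.61 ± 0.09 at P14 in LR-HR and LR-LR pups (SD, n = 5 each), a change of -0.54 (adjusted p = 0.0265, limma). Its changes at P21 and in adults, -0.63 and 0.51, also passed. Stx1a, a neuronal syntaxin of the plasma membrane, passed only at P21 (-0.72), and its changes at P14 and in adults were -0.61 and 0.50. Vamp1 passed at none of the 4 ages, with changes between -0.31 and -0.02.

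Among the regulators of SNARE assembly, Nsf, the ATPase that disassembles SNARE complexes, read 12.07, 12.40, 12.37, 12.82 and 12.50 in LR-HR pups at P14, against 12.82, 13.17, 13.46, 13.19 and 13.19 in LR-LR pups. The highest LR-HR value lay just under the lowest LR-LR value, with a change of -0.73 ± 0.19 (log2, SE; adjusted p = 0.00681). Nsf was also lower at P21 (-0.91) and higher in adults (0.85), and Cplx1 followed the same course with -0.67, -0.95 and 0.79. Cplx2 was lower at P21 alone (-0.76). Napa was higher in adults (0.85) and did not pass at the younger ages. Stxbp2, a syntaxin-binding protein known from secretory blood cells, had changes of -0.33 to 0.18 and passed at no age.

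The calcium sensor Syt1 changed by -1.22 at P14, -0.89 at P21 and 1.08 in adults, each past the threshold. Syt11, a synaptotagmin that does not bind calcium, gave the largest adult change of any member: 11.97, 11.98, 12.05, 12.17 and 12.16 in LR-HR rats, against 10.06, 10.46, 10.52, 10.83 and 10.71 in LR-LR rats. No LR-HR value came near the LR-LR range (change 1.55 ± 0.18, log2, SE; adjusted p = 2.33e-05). At P21 the largest fall was that of Syt10, a synaptotagmin that in mouse olfactory neurons drives release of a growth factor (-1.52 ± 0.34, SE, adjusted p = 0.00368, limma). Syt10 was dim, with a mean of 6.35 over the amygdala arrays, percentile 20.0 of all transcripts. At the same age Syt2 fell by 1.37 on the log2 scale (adjusted p = 0.0373, limma). Syt2, a fast calcium sensor, was uneven among LR-HR pups, at 9.24, 9.08, 7.77, 7.13 and 6.87, against 9.15 to 9.63 in LR-LR pups. The calcium sensors Syt5 and Syt9 passed in none of the rearing comparisons of either region.

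Syn1, which tethers vesicles to actin, read 10.87, 11.13, 11.34, 10.23 and 11.37 in LR-HR pups at P14, against 12.28, 12.62, 13.03, 12.52 and 13.10 in LR-LR pups. The change was -1.72 ± 0.22 (log2, SE; adjusted p = 1.32e-05), followed by -1.03 at P21 and 1.31 in adults. Syn3 was lower at P14 (-0.91) and higher in adults (0.86), whereas Syn2 passed at no age, with changes of -0.25 to 0.38. Of the vesicle membrane proteins, Sv2a and Sv2b were lower at P14 (-0.89 and -1.34) and at P21 (-1.01 and -0.67) and higher in adults (0.80 and 0.97). Synaptophysin (Syp), a tetraspan protein of the vesicle membrane, was lower at P14 (-0.43) and higher in adults (0.73). Snap91 (AP180), which recruits clathrin to retrieved vesicles, changed by -0.98, -0.90 and 1.11. Rab3c was lower at both young ages (-0.57 and -0.74), and Rab3a was higher in adults (0.63).

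Of the 18 SNAREs that serve other membranes, 2 were higher and 2 lower at P14, 1 higher and 4 lower at P21, and 4 higher in adults, counts near the shares of all transcripts (22.3%, 21.6% and 21.7% called). Their median changes were 0.03, -0.40 and 0.32. Stx7 and Stx3, of the endosome and of polarized plasma membranes, were exceptions at P14 with -1.66 and -0.98. Stx8, an endosomal SNARE, was higher in LR-HR pups at P14: 7.37, 7.32, 7.98, 7.23 and 7.64, against 5.86, 6.43, 6.91, 6.57 and 6.58 in LR-LR pups. The groups did not overlap (change 1.04 ± 0.29, log2, SE, limma adjusted p = 0.0121), and at P21 Stx8 was again higher (1.01). Stx8 lay below the median transcript, at percentile 36.7 of all amygdala transcripts. Vamp8, another endosomal SNARE, averaged 8.74 ± 0.09 in LR-HR pups at P14 and 7.78 ± 0.29 in LR-LR pups (SD, n = 5 each; adjusted p = 0.00497, limma). Syt8 was the third member higher at P14 (0.83, adjusted p = 0.0437, limma), though it was very dim, at percentile 3.27 of all amygdala transcripts.

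Many members were called at more than 1 age. Of the members lower in LR-HR rats at P14 (22) and at P21 (23), 15 were on both lists. Over all transcripts, the shared calls were 57.6% of the P14 list and 51.2% of the P21 list, or 7.92% of the 22197 transcripts. Of those 15 members, 13 were higher in LR-HR adults, among them Cplx1, Nsf, Snap25, Snap91, Stx7, Sv2a, Sv2b, Syn1, Syt1, Syt11 and Vamp2. Among all transcripts, 1759 were lower at both young ages, and 1208 of these were higher in adults (5.44% of those tested). The change of the fostering difference between ages was tested as an interaction. Between P21 and adulthood it passed for 39 of the 59 members, all upward, against 41.1% of all transcripts (30.0% upward, 11.1% downward). Syt10 gave 2.72 ± 0.47 and Syt11 gave 2.40 ± 0.22 (log2, SE) in that test. Between P07 and P14 it passed for 21 members downward and 1 upward, against 22.7% of all transcripts (15.8% downward, 6.96% upward). Between P14 and P21 it passed for 0, against 0.27%. By limma, 15 members and 2478 of the 22197 transcripts had an unadjusted p under 0.05 in that last test.

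**Figure D2:**
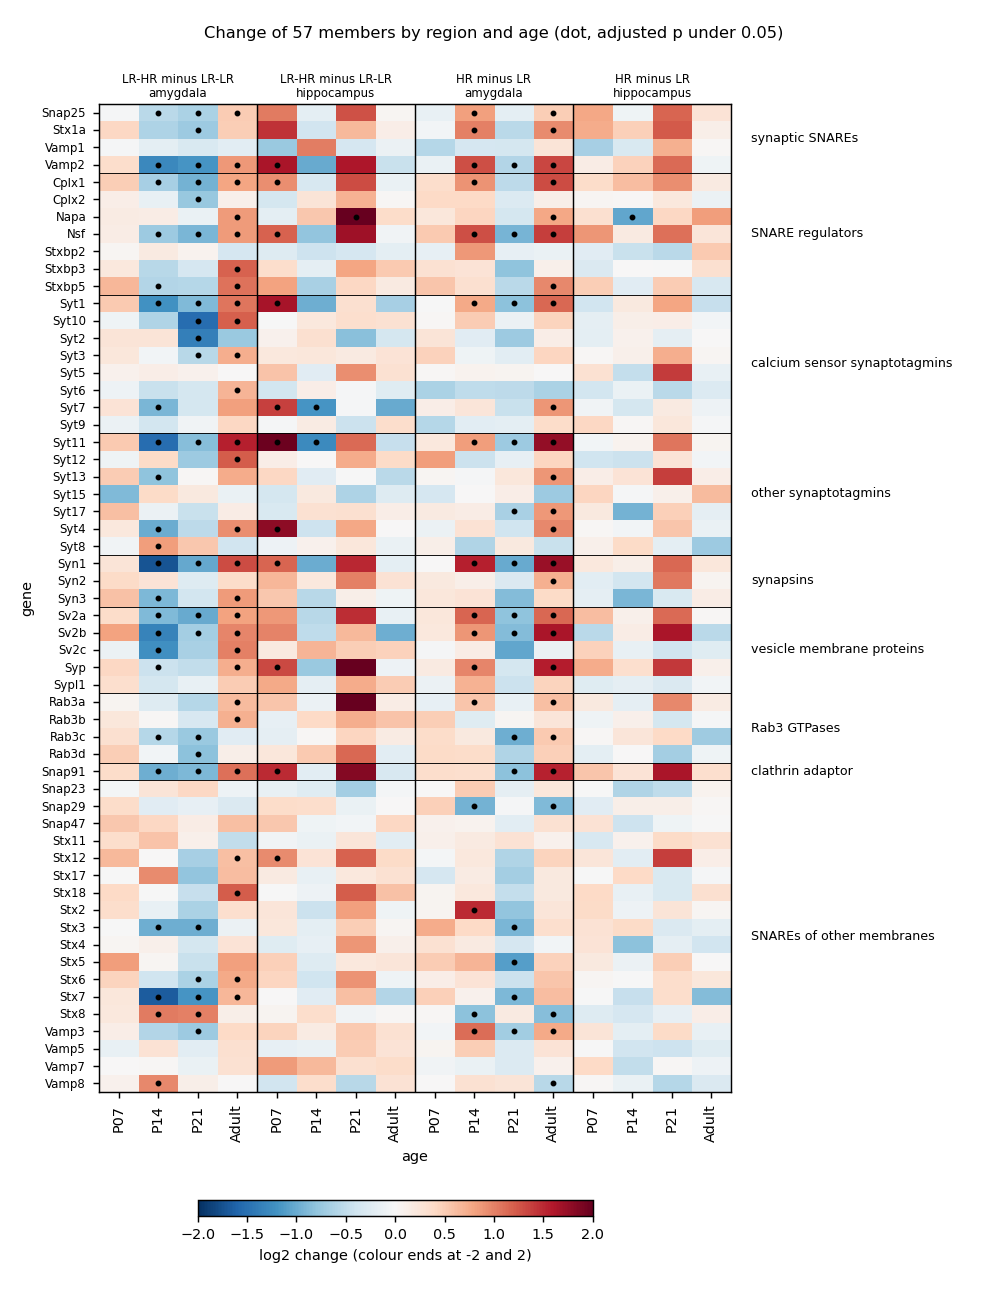
Log2 change of 57 of the 59 members (rows, by role) at each age (columns) for LR-HR minus LR-LR and HR minus LR in both regions; a dot marks an adjusted p under 0.05. In the first column block Vamp2, Nsf, Syt1, Syt11, Syn1 and Sv2b are blue at P14 and P21 and red in adults, each with a dot.

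The comparison of the lines, each raised by its own mother, asked how HR and LR amygdala differed. Members were higher in HR pups at P14, lower at P21 and higher again in adults. No member passed at P07 (0.131% of all transcripts did). By limma, 13 members and 2469 of the 22197 transcripts had an unadjusted p under 0.05. At P14, 16 of the 59 were higher and 2 lower (30.5%), against 22.8% of all transcripts (12.8% higher, 9.98% lower). At P21, 16 were lower and 0 higher (27.1%), against 15.7% of all transcripts (11.6% lower, 4.03% higher). In adults 24 were higher and 3 lower (45.8%), against 28.1% of all transcripts (20.2% higher, 7.88% lower). The median changes were 0.29, -0.45 and 0.45 for the members and 0.04, -0.14 and 0.09 for all transcripts.

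Syn1 read 12.18, 12.27, 12.23, 12.54 and 12.08 in HR pups at P14, against 10.48, 10.66, 10.53, 10.67 and 11.15 in LR pups. All HR values lay above all LR values (change 1.56 ± 0.22, log2, SE; adjusted p = 3.07e-05). At P21 Syn1 averaged 12.04 ± 0.41 in HR pups and 13.06 ± 0.19 in LR pups, and in adults 12.74 ± 0.28 in HR rats and 11.02 ± 0.34 in LR rats (SD, n = 5 each). Both differences passed the test, with changes of -1.01 and 1.72. Other members with large changes were Stx2 (1.49) at P14, Stx5 (-1.10) at P21, and Syt11 (1.76) and Sv2b (1.63) in adults. Stx2 and Stx5 lay below the median transcript, at percentiles 47.2 and 38.2 of all amygdala transcripts. Snap29, a SNARE of autophagosome fusion, and Stx8 were lower in HR rats at P14 (-0.94 and -0.82) and in adults (-0.89 and -0.86), and Vamp8 was lower in HR adults (-0.56).

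The adult difference between the lines and the adult fostering difference come from separate arrays but not from separate fits. All rearing groups of an age were fitted together, so a gene had the same variance estimate in both comparisons. A gene with a small variance was thus easier to call in both, and the shared calls at each age are not fully independent. Of the 29 members higher in LR-HR than LR-LR adults and the 24 higher in HR than LR adults, 17 were on both lists, among them Syn1, Vamp2, Snap25, Syt1 and Syp. Over all transcripts the shared calls were 68.0% of the first list and 57.7% of the second, or 11.7% of those tested. At P21, 14 members were lower in both comparisons, out of 23 in LR-HR pups and 16 in HR pups; over all transcripts the shared calls were 47.2% and 62.7% of those lists. At P14 the directions were opposed: 12 members were lower in LR-HR than LR-LR pups and higher in HR than LR pups, out of 22 and 16, and over all transcripts the shared calls were 48.5% and 52.1% of those lists.

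Fostering within the LR line (LR-LR against LR) asked what transfer to a foster dam of the same line did. At P14, 28 of the 59 members were higher in LR-LR pups and 2 lower (50.8%), against 37.7% of all transcripts (24.9% higher, 12.7% lower). Syn1 and Vamp2 were higher by 2.01 ± 0.22 and 1.65 ± 0.16 on the log2 scale (SE; adjusted p = 8.26e-07 and 2.41e-07, limma). Syn1 averaged 12.71 ± 0.35 in LR-LR pups and 10.70 ± 0.27 in LR pups, and Vamp2 averaged 14.40 ± 0.11 in LR-LR pups and 12.74 ± 0.25 in LR pups (SD, n = 5 each). LR-HR pups of that age, at 10.99 ± 0.47 for Syn1 and 13.11 ± 0.19 for Vamp2, overlapped the LR pups in both genes. Stx8 and Vamp8 were lower in LR-LR than LR pups by 1.10 and 0.86 on the log2 scale (-1.10 and -0.86). This comparison and LR-HR against LR-LR share the LR-LR arrays. At P07 and P21 no member passed (0.0586% and 0.0135% of all transcripts did). An unadjusted p under 0.05 (limma) was seen for 6 and 0 members, and for 1894 and 702 of the 22197 transcripts. In adults 1 member was higher in LR-LR rats, against 0.658% of all transcripts (0.324% higher, 0.333% lower); with the replicate number as a block 4 members passed, and 0 to 3 did with any 1 array left out.

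**Figure D3:**
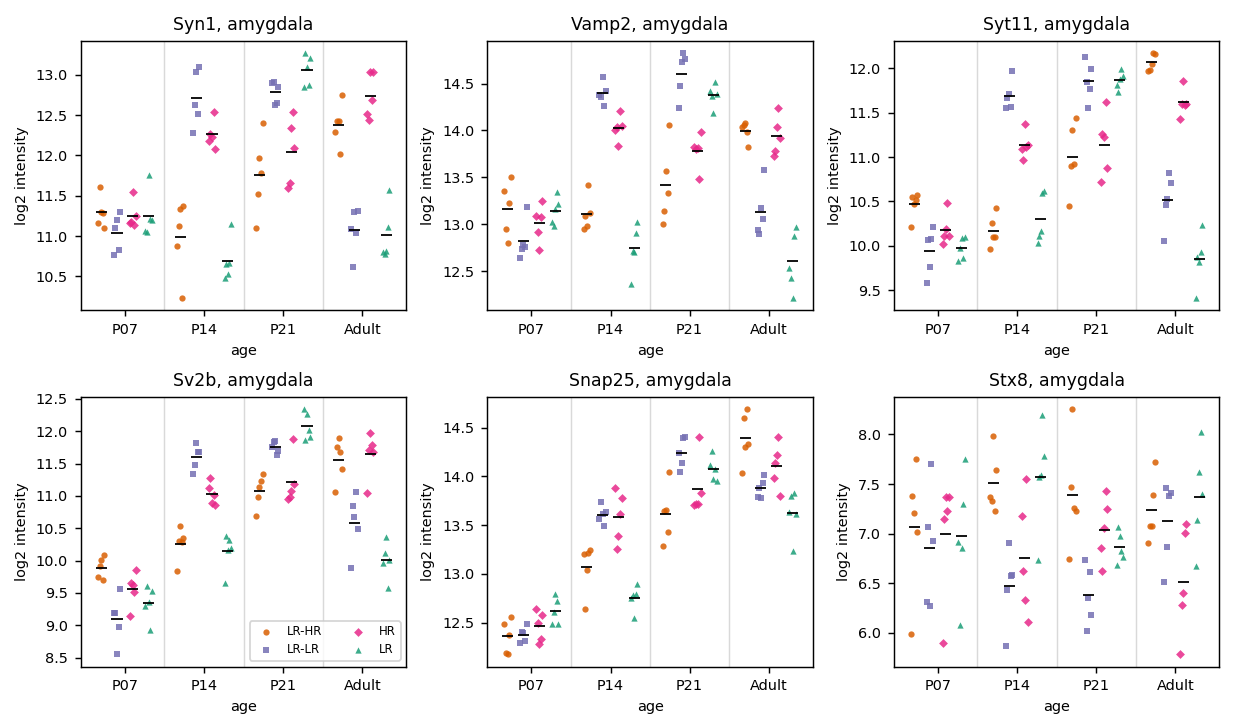
Log2 intensity of 6 members in the amygdala on each array (points) by age and rearing group; bars are means of 5 arrays. For Syn1 at P14 the LR-HR arrays (10.23 to 11.37) lie below the LR-LR arrays (12.28 to 13.10), and for Vamp2 in adults the LR-HR arrays (13.83 to 14.08) lie above the LR-LR arrays (12.90 to 13.58); for Stx8 at P14 the LR-HR arrays lie above the LR-LR arrays.

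Other synaptic gene lists were counted in the same amygdala comparison, in which 13.7% of all transcripts were lower and 8.52% higher at P14, 15.5% lower and 6.14% higher at P21, and 17.2% higher and 4.55% lower in adults. Of 21 genes of the postsynaptic density, 14 were lower in LR-HR than LR-LR pups at P14, 14 lower at P21 and 14 higher in adults (median changes -0.81, -0.77 and 0.83). Of 15 active zone and priming genes, 8, 8 and 7 moved in those directions, and of 15 genes of vesicle endocytosis 8 were lower at P14, with 1 higher, and 10 higher in adults. Of 12 subunits of the vesicle proton pump, 4 were lower at P14, with 1 higher, 4 lower at P21 and 3 higher in adults, the last near the share of all transcripts. Of 12 calcium channel and release partner genes, 5 were lower at P14, 7 lower at P21 and 5 higher in adults. These lists were chosen with results of these data known and are no independent evidence of direction.

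Genes outside the synapse moved as well. The 22 ribosomal protein genes averaged 12.45 to 12.65 across LR-HR arrays at P14 and 11.27 to 11.65 across LR-LR arrays, and 20 of the 22 rose in LR-HR relative to LR-LR pups. At P21 they averaged 12.19 to 12.66 on LR-HR arrays and 11.26 to 11.39 on LR-LR arrays, and 18 of the 22 passed as higher in LR-HR. In adults 3 of the 22 were lower in LR-HR rats and 0 higher; the list averaged 12.16 in LR-HR rats and 12.34 in LR-LR rats. Of all transcripts, 8.52% and 6.14% passed as higher in LR-HR pups at P14 and P21, and 4.55% as lower in adults. Between the lines, 22 of 22 ribosomal genes were lower in HR pups at P14, 17 higher at P21 and 19 lower in adults. The matching shares of all transcripts were 9.98%, 4.03% and 7.88%. In each of these comparisons the median change of the ribosomal genes had the opposite sign to that of the members, though it was only -0.20 in the adult LR-HR against LR-LR comparison. The part of the ribosomal shift in the members' changes was not tested.

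**Figure D4:**
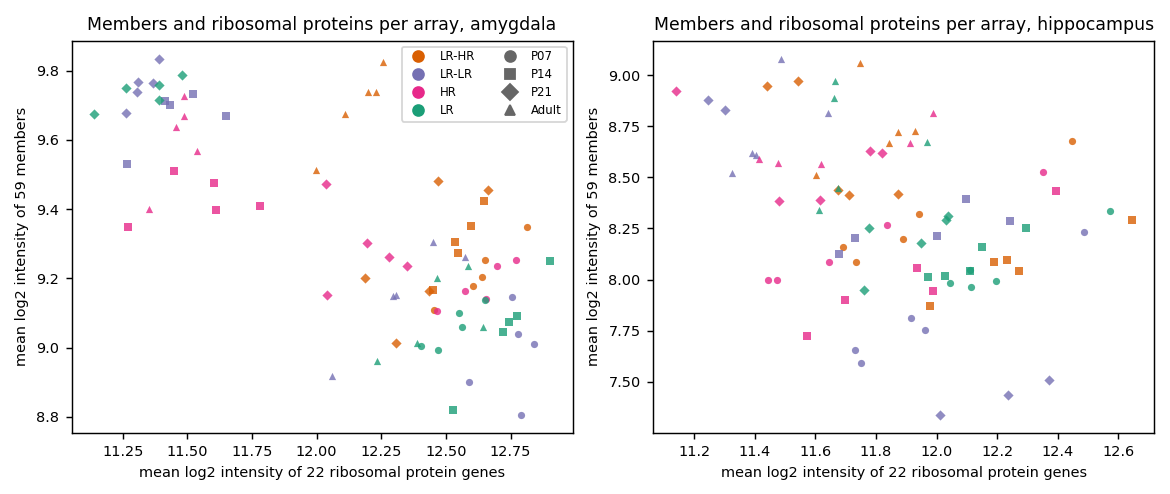
Mean log2 intensity of the 59 members (vertical) and of 22 ribosomal protein genes (horizontal) on each array, amygdala left and hippocampus right; colour gives the rearing group and shape the age. In the amygdala at P14 the LR-LR arrays lie at ribosomal means of 11.27 to 11.65 and the LR-HR arrays at 12.45 to 12.65.

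Markers of other cells are given for the same comparison of LR-HR with LR-LR, to be read against the same shares of all transcripts. These were 13.7% lower and 8.52% higher at P14, 15.5% lower and 6.14% higher at P21, and 17.2% higher and 4.55% lower in adults. Astrocyte markers averaged 10.30 to 10.61 on LR-HR arrays and 10.59 to 10.99 on LR-LR arrays at P14 (3 of 11 lower, 1 higher). In adults they averaged 11.11 to 11.53 on LR-HR arrays and 10.51 to 11.06 on LR-LR arrays (4 of 11 higher). Endothelial and pericyte markers averaged 7.91 to 8.23 in LR-HR pups and 8.37 to 8.94 in LR-LR pups at P14 (4 of 11 lower), and 7.82 to 8.31 in LR-HR adults and 7.18 to 7.99 in LR-LR adults (4 higher). Markers of striatal projection neurons, which neighbour the amygdala, averaged 8.61 to 9.02 on LR-HR arrays and 9.66 to 10.04 on LR-LR arrays at P14 (7 of 11 lower). In adults they averaged 9.71 to 10.05 on LR-HR arrays and 8.32 to 8.76 on LR-LR arrays (9 of 11 higher). Myelin markers ran from 8.92 to 9.19 in LR-HR pups and from 8.85 to 9.16 in LR-LR pups at P14, where 0 of 11 passed, and 8 of 11 were higher in LR-HR adults. At P21 the astrocyte (5 lower, 1 higher), endothelial (5), striatal (5) and myelin (4) lists had members lower in LR-HR pups. Of 13 general neuron markers, 2 were lower at P14, near the share of all transcripts, 4 lower at P21 and 7 higher in adults. Of 8 blood cell markers, 4 were higher in LR-HR pups at P14 and at P21, and in adults 3 were higher and 1 lower. Microglia markers were higher for 2, 1 and 2 of 10 at the 3 ages, and choroid plexus markers were higher for 2 and 1 of 8 in pups and lower for 2 in adults. Between the lines at P14, myelin markers were higher in HR pups for 11 of 11 and astrocyte markers for 8 of 11, against 12.8% of all transcripts. No marker was at 0, since the arrays give every row an intensity. The part of these cell types in the members' changes was not tested.

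In the hippocampus the members differed between rearing groups mainly at P07. Of the 59, 13 were higher in LR-HR than LR-LR pups and 0 lower, against 2.91% of the 25897 transcripts (2.22% higher, 0.687% lower). With the replicate number as a block, 21 passed, all higher; same-numbered arrays deviated together in this pair of groups. The median change was 0.37 for the members and -0.04 for all transcripts. Syt11 read 9.32, 9.59, 9.76, 9.34 and 10.03 in LR-HR pups, against 6.85, 7.35, 8.23, 7.08 and 8.74 in LR-LR pups. The groups did not overlap, and the change was 1.96 ± 0.31 (log2, SE; adjusted p = 0.000708). Syt4, a synaptotagmin induced by neuronal activity, changed by 1.78, and Syt1 and Vamp2 by 1.65 and 1.64. LR pups lay nearer to LR-HR than to LR-LR pups for Syt11 (8.83 ± 0.27, SD, n = 5), and 6 members were lower in LR-LR than LR pups, against 2.59% of all transcripts (0.683% lower, 1.9% higher), or 14 with the replicate block (1 higher and 13 lower) and 3 to 11 with any 1 array left out. The members called there included Syt1 (-1.41) and Vamp2 (-1.34). Beside them, 7 of 21 postsynaptic density genes and 3 of 11 astrocyte markers were higher in LR-HR than LR-LR pups. The postsynaptic density list averaged 9.26 to 9.77 on LR-HR arrays and 8.21 to 9.11 on LR-LR arrays.

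At P14, 3 members were lower in LR-HR than LR-LR hippocampus, against 0.583% of all transcripts (0.51% lower, 0.0734% higher). Syt11 read 8.77, 7.90, 8.56, 7.77 and 9.35 in LR-HR pups, against 9.51, 9.58, 9.69, 9.72 and 10.25 in LR-LR pups, a change of -1.28 ± 0.27 (log2, SE; adjusted p = 0.0305). Its groups did not overlap; Syt7 (-1.18) was also lower, and the count ran from 1 to 5 with any 1 array left out. Syt11 still passed without LR-LR replicate 1 or 2 or LR-HR replicate 5, and did not without any 1 of the others. Fitted to the 2 groups compared alone, 0 members passed, and 9 passed with the replicate number as a block, all lower. Of the members, 5 were higher in LR-LR than LR pups at P14, against 1.53% of all transcripts (1.1% higher, 0.436% lower), 11 passed with the replicate block, and 0 to 2 passed with any 1 array left out. Napa alone was lower in HR than LR pups (-1.04), against 2.76% of all transcripts (0.807% lower, 1.96% higher), and 0 to 4 members passed with any 1 array left out. For Syt11 the fostering difference changed sign between P07 and P14, with an interaction of -3.24 ± 0.71 (log2, SE); 6 members passed that test downward and 1, Vamp1, upward, against 2.0% of all transcripts (1.59% downward, 0.402% upward). Without any 1 replicate number Vamp1 (1.28 to 2.06) no longer passed, and without replicate 2, 3 or 4 the count was 3 or 4, all downward.

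At P21 the hippocampal comparison rested on the arrays that stood apart. Syp read 12.24, 12.41, 11.63, 11.82 and 12.71 in LR-HR pups, against 7.27, 6.07, 6.48, 12.40 and 12.46 in LR-LR pups. The LR-LR arrays thus fell into a low and a high set, and only Napa passed (1.99, against 0.969% of all transcripts, with 0.9% higher and 0.0695% lower). Without LR-LR replicate 4, or without LR-LR replicate 5, 14 members passed, and without LR-LR replicate 1, 2 or 3, or LR-HR replicate 1, 3, 4 or 5, 0 did. With the 4 arrays that stood apart left out, 0 did. Counts with arrays left out are of members alone, without the share of all transcripts in the same fits. The interaction between P14 and P21 passed for 12 members, all upward, against 5.03% of all transcripts (4.12% upward, 0.911% downward), and for 0 without the 4 arrays, where 7 of the 12 had the opposite sign. That between P21 and adulthood passed for Syp (-3.33) and Napa (-1.62), against 1.0% of all transcripts (0.931% downward, 0.0734% upward), and for 0 without the 4 arrays. In LR-LR against LR pups 0 members passed, against 0.0116% of all transcripts, and 8 higher and 1 lower did without the 4 arrays. With them, 6 members and 2536 of the 25897 transcripts had an unadjusted p under 0.05 (limma). Between HR and LR, 0 members passed with or without the 4 arrays, and 0% of all transcripts did with them. In that fit 10 members and 1763 of the 25897 transcripts had an unadjusted p under 0.05 (limma).

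In adult hippocampus no member passed in any rearing comparison, with 0.00386% of all transcripts called for LR-HR against LR-LR, 0.0502% for HR against LR and 0% for LR-LR against LR. By limma, 5, 4 and 5 members had an unadjusted p under 0.05 in those comparisons, as did 1970, 1793 and 1626 of the 25897 transcripts. At P07, HR against LR gave 0 members (0.147% of all transcripts). Unadjusted, 4 members and 2717 of the 25897 transcripts had a p under 0.05 (limma). Over both regions, 12 of the 59 members passed in no rearing comparison: Snap23, Snap47, Stx4, Stx11, Stx17, Vamp1, Vamp5, Vamp7, Stxbp2, Syt5, Syt9 and Syt15. The matching share of all transcripts was not counted, so whether 12 is few or many is not known. In the amygdala these members ran from percentile 3.47 of all transcripts (Stx11) to 95.3 (Syt5).

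Across postnatal development, averaged over the 4 rearing groups, members rose in the amygdala between P07 and P21. From P07 to P14, 26 of the 59 rose and 3 fell (49.2%), against 27.6% of all transcripts (14.9% higher, 12.7% lower). From P14 to P21, 18 rose and 1 fell, against 15.3% (9.44% higher, 5.83% lower). Sv2b averaged 9.47 ± 0.39, 10.76 ± 0.65, 11.53 ± 0.48 and 10.95 ± 0.77 at P07, P14, P21 and in adults (SD, n = 20 arrays). Its first step of 1.29 was the largest among the members, followed by those of Syt17 (1.02) and Syn2 (1.01). Snap25 averaged 12.46 ± 0.17, 13.26 ± 0.41 and 13.95 ± 0.32 at the 3 young ages, with a last step of 0.05 that did not pass, and Syt1 rose by 0.55 and then 0.82. Rab3b, a Rab3 of neurons and secretory cells, took the other course, at 9.30 ± 0.29, 8.59 ± 0.54, 8.23 ± 0.44 and 8.02 ± 0.43, although in the HR and LR arrays alone it changed by 0.079 from P14 to P21. Syt6 fell by 0.79 between P07 and P14. The third gene to fall in that step was Syt4 (-0.32), which changed by 0.002 in the fostered arrays alone.

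From P21 to adulthood 17 members fell and 3 rose in the amygdala (33.9%), against 19.7% of all transcripts (11.7% lower, 8.01% higher), among the falls those of Stx1a (-0.79) and Vamp2 (-0.63). That average joined groups that went opposite ways. The mean of the members at P21 and in adults was 9.26 and 9.70 in LR-HR rats, 9.76 and 9.16 in LR-LR rats, 9.28 and 9.60 in HR rats, and 9.74 and 9.09 in LR rats. In the fostered arrays alone (LR-HR and LR-LR) 5 members passed in this step, all lower, and from P14 to P21, 7 passed as higher and 3 as lower, against 18 and 1 over all groups. Sv2a changed by -0.14 there from P14 to P21, against 0.19 over all groups.

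In the hippocampus 8 members rose and 5 fell from P07 to P14, against 12.1% of all transcripts (7.44% higher, 4.71% lower). From P14 to P21, 15 rose and 0 fell, against 20.2% (8.65% higher, 11.5% lower), and from P21 to adulthood 22 rose and 2 fell (40.7%), against 15.2% (10.2% higher, 4.99% lower). Without the 4 arrays that stood apart, 29 rose and 1 fell from P14 to P21 and 4 rose and 0 fell from P21 to adulthood. Those counts are of members alone, since the shares above belong to the fit that keeps the 4 arrays. Snap25 averaged 10.81 ± 0.69, 11.41 ± 0.51, 12.52 ± 1.0 and 13.33 ± 0.36 at P07, P14, P21 and in adults (SD, n = 20 arrays), and it rose in each step. Its P21 mean and its steps into and out of P21 include the 4 arrays that stood apart. Syn2 rose from P07 to P14 (0.74), as did Napa (0.75) and Syt17 (0.66), while Syt4 fell by 0.83. From P07 to P14, 7 members rose in both regions, out of 26 amygdala and 8 hippocampal rises (over all transcripts, 20.9% and 37.1% of those lists): Cplx2, Snap25, Stx4, Syn2, Syt17, Vamp7 and Vamp8. From P14 to P21, 7 rose in both, out of 18 and 15 (41.7% and 43.5% over all transcripts), among them Cplx1, Nsf, Snap25 and Sv2b. In the fostered arrays alone 2 and 3 members passed in the first and second hippocampal steps, and in the HR and LR arrays alone 3 passed in the last.

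**Figure D5:**
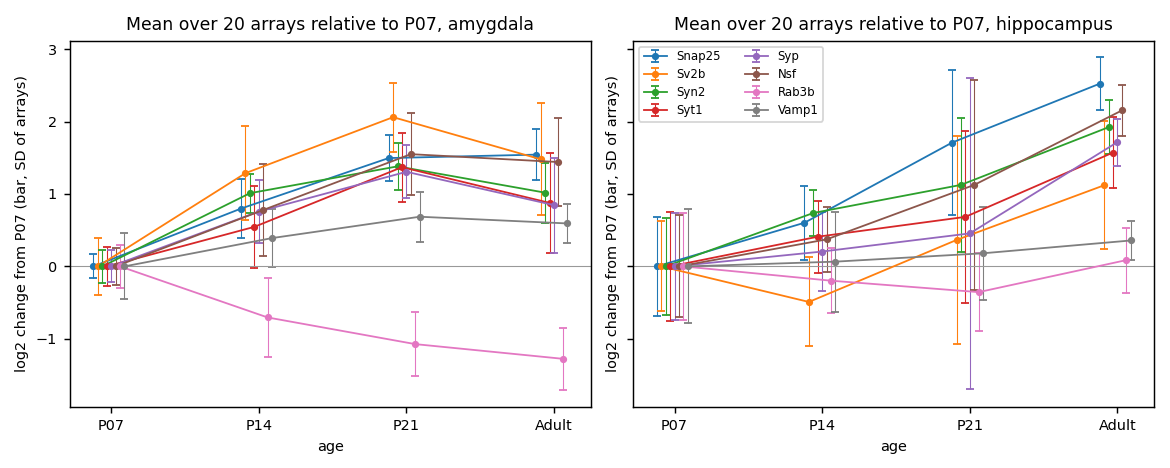
Mean log2 intensity of 8 members over 20 arrays at each age, relative to P07, in amygdala (left) and hippocampus (right); bars are the SD over arrays. In level, Snap25 climbs to 13.95 at P21 in the amygdala and to 13.33 in adult hippocampus, and Rab3b lies lower at each later age in the amygdala, at 8.02 in adults.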

How the data were processed

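RNA of 160 samples was hybridised to 1-colour NimbleGen arrays. Per the submitters' processing notes the authors used RMA, and the deposited values are intensities on a linear scale; each region came as its own table, so no test crossed regions. The median intensity of an array was 177 to 235 (amygdala) or 114 to 130 (hippocampus); the number of arrays limits the precision. Values were taken to log2 with no pseudocount. Accessions were named through a RefSeq table of assembly GRCr8 (9506 of 25902 rows matched), and 1 control row was left out. limma 3.58.1 in R 4.3.3 was fitted to all 22197 (amygdala) or 25897 (hippocampus) transcripts, within each age for rearing groups and over all ages for development and interactions, with Benjamini-Hochberg adjustment and a threshold of 0.05. The code was tested on simulated data.

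The members and lists were chosen with earlier results of these data known. Values are given for 17 core genes and, per comparison, the 3 largest called rises and falls; members outside that rule were named after their values were seen. The values of 2 members, which stay in every fit and count, are not reported here. Replicate numbers repeat across groups: in 8 of 24 pairs of groups every same-numbered pair of arrays deviated together (correlation above 0.1; range over all pairs -0.234 to 0.644). Alternatives were quantile normalization, a filter on dim transcripts, the replicate block, the mean over rows of a symbol, only the groups compared, and arrays left out. The shares of all transcripts belong to the fits without these alternatives. Counts under an alternative are of members alone and have no such share beside them.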

Additional observations from a re-analysis of the deposited data

Results flagged for a closer look

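In 576 groups of 5 arrays (the mean of the members and each of 17 core genes, over 32 groups), the highest or lowest array was tested for a gap to its nearest neighbour above 0.71 of the whole range (Dixon). It was so in 50 groups (8.68%); chance gives about 5%. Values are log2 intensities. In the amygdala the following arrays were so placed. At P07, LR-LR replicate 5 was highest for Cplx1 (11.66) and Vamp2 (13.18). At that age too, HR replicate 3 was highest for Syn1 (11.54) and LR replicate 3 was highest for Syn1 (11.76). There, LR-LR replicate 3 was lowest for Syt2 (6.76) and HR replicate 3 was lowest for Vamp1 (7.91). At P14, LR-LR replicate 4 was lowest for Rab3a (13.45) and LR replicate 1 was lowest for Snap91 (10.67). At that age too, LR-HR replicate 4 was highest for Sv2a (12.55) and LR replicate 5 was highest for Syn1 (11.15). There, HR replicate 1 was highest for Syn2 (12.71) and LR-LR replicate 1 was lowest for Syp (13.46). In the same tissue, LR-LR replicate 5 was highest for Syt1 (11.47). At P21, HR replicate 1 was lowest for Rab3a (12.90) and HR replicate 4 was highest for Snap25 (14.40), Snap91 (11.83) and Sv2b (11.88). At that age too, LR-LR replicate 4 was highest for Snap91 (12.53) and LR replicate 1 was highest for Snap91 (12.71) and Syn2 (13.50). In adults, LR-LR replicate 2 was lowest for Rab3a (12.39).

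In the hippocampus the following arrays were so placed. At P07, LR replicate 5 was highest for the mean of the members (8.34) and LR-LR replicate 5 was highest for Snap91 (10.04) and Sv2a (10.61). At that age too, LR replicate 4 was lowest for Snap91 (9.63) and HR replicate 5 was highest for Stx1a (9.08) and Sv2a (11.54). There, LR-HR replicate 5 was highest for Syt1 (9.95). At P14, HR replicate 5 was highest for Nsf (10.73) and Snap25 (12.29) and LR replicate 5 was highest for Stx1a (8.30). At that age too, HR replicate 1 was highest for Syt2 (7.91). At P21, LR replicate 5 was lowest for Cplx1 (10.20), Snap25 (10.38), Sv2a (8.71), Syn2 (8.17), Syp (8.28), Syt1 (6.91) and Vamp2 (9.83) and HR replicate 4 was highest for Rab3a (12.78), Snap91 (11.21), Stx1a (10.15), Sv2b (10.36) and Syp (12.72). In adults, LR-HR replicate 5 was highest for Cplx1 (12.87), Syp (12.74) and Syt1 (10.82) and LR-LR replicate 5 was highest for Cplx1 (12.85) and Snap25 (13.77). At that age too, LR replicate 2 was highest for Snap23 (8.25).

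The fostering difference (LR-HR minus LR-LR) changed between ages by the interaction test. In the amygdala 22 of the 59 members passed between P07 and P14, against 22.7% of all transcripts, among them Sv2b (-2.14), Syt11 (-2.05) and Vamp8 (0.88). Between P21 and adulthood 39 passed, against 41.1% of all transcripts, among them Syt10 (2.72) and Syt11 (2.40). In the hippocampus 7 passed between P07 and P14, against 2.0% of all transcripts, among them Syt11 (-3.24), Vamp2 (-2.65) and Vamp1 (1.77). Between P14 and P21, 12 passed, against 5.03% of all transcripts, among them Syp (3.97) and Vamp2 (2.63). Between P21 and adulthood 2 passed, Syp (-3.33) and Napa (-1.62), against 1.0% of all transcripts. The last 2 hippocampal tests gave 0 members without the 4 P21 arrays that stood apart.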

How the results depend on the processing

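Of 431 recomputed counts of called members over 36 comparisons, 332 stayed within 1.5 times the reported count and 99 did not, 80 of the 99 in the hippocampus. In 9 amygdala comparisons (LR-HR against LR-LR and HR against LR at P14, P21 and in adults, LR-LR against LR at P14, and the interactions from P07 to P14 and from P21 to adulthood) the counts under 118 settings all stayed within 1.5 times. Those 9 are a chosen part: over all amygdala comparisons, 19 of 212 counts did not. With 1 array or replicate number left out, LR-HR against LR-LR in the amygdala gave 18 to 25 members at P14, 18 to 26 at P21, 21 to 30 in adults and 0 to 2 at P07. LR-LR against LR gave 0 to 3 in adult amygdala, and in the hippocampus 3 to 11 at P07, 0 to 2 at P14 and 0 to 2 at P21. In the hippocampus LR-HR against LR-LR gave 1 to 5 at P14 and 0 to 14 at P21, HR against LR gave 0 to 4 at P14, and the interactions gave 3 to 10, 0 to 17 and 0 to 11 in the order of age.

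Under the replicate block, LR-HR against LR-LR gave 3 members in P07 amygdala and 21, 9 and 2 in hippocampus at P07, P14 and P21. HR against LR gave 2 and 4 there at P07 and P14, LR-LR against LR 14 and 11 there and 4 in adult amygdala, and the hippocampal interactions 12, 19 and 6. Where the numbers pair the samples, the block changed no other call count by over 1.5 times. Quantile normalization gave 5 for LR-LR against LR in adult amygdala, 7 for LR-HR against LR-LR in P14 hippocampus, 1 for the amygdala interaction between P14 and P21 and 4 for the hippocampal one between P21 and adulthood. The filter on dim transcripts gave 3 (LR-HR against LR-LR, P07 amygdala), 6 (LR-LR against LR, adult amygdala), 5 (LR-HR against LR-LR, P14 hippocampus) and 2 (HR against LR, P14 hippocampus). Fitting only the groups compared gave 0 for LR-LR against LR in adult amygdala, 3 for it in P07 hippocampus, and 0 for LR-HR against LR-LR in P14 and in P21 hippocampus.

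In fostered arrays alone, development gave 10 members (P14 to P21) and 5 (P21 to adult) in amygdala, and 2 (P07 to P14) and 3 (P14 to P21) in hippocampus; HR and LR arrays alone gave 3 (P21 to adult) in hippocampus. In fostered arrays the amygdala change had the opposite sign for Syt4 from P07 to P14 (0.002) and for Sv2a (-0.14) from P14 to P21, as it had in HR and LR arrays for Rab3b from P14 to P21 (0.079). Leaving out the 4 hippocampal P21 arrays, a choice made after seeing the data, gave 0 for LR-HR against LR-LR, 9 for LR-LR against LR, 30 and 4 for the development steps into and out of P21, and 0 and 0 for the interactions. It turned the interaction between P14 and P21 for Cplx1 (-0.21), Nsf (-0.24), Rab3a (-0.33), Syn1 (-0.23) and Vamp2 (-0.18), and that between P21 and adulthood for Syp (0.16). The cause of these differences in count was not tested. In the hippocampus 35 members had at least 1 array at or below the control row of that same array (control row over the arrays, 5.89 ± 0.10, mean and SD, log2).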
